A study of Mus musculus with 37 samples.

Results

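GABA is the main inhibitory transmitter of the cortex, and the genes described here are 29 genes of its receptors, its synthesis, transport and breakdown, and the interneurons that release it. They were chosen by name: a row of the count table was taken when its Ensembl identifier maps to one of the 29 symbols. All 29 were found among 56980 genes, and together they held 0.3823% of all counts. RNA came from brain, given in the title of the series as medial prefrontal cortex, of wild-type male C57BL/6J mice, and was sequenced as polyadenylated RNA. The 8 groups cross age, drink and injection. Treatment began on postnatal day 25 in the adolescent mice and on postnatal day 55 in the adult mice. Mice drank water or received oral antibiotics (Abx), and were injected under the skin with saline or with morphine at 15 mg/kg for 5 days. No group was left without injections, and every group shares the strain, the sex and the tissue. The labels do not state whether the libraries of a group come from separate animals, so the p-values measure the spread between these libraries.

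Fast inhibition runs through GABA-A receptors, chloride channels built from several subunits, whose alpha, beta and gamma or delta members set their place on the neuron and their drug sensitivity. Slow inhibition runs through GABA-B receptors, obligate pairs of Gabbr1 and Gabbr2 that signal through G proteins. The enzymes encoded by Gad1 and Gad2 make GABA from glutamate, Slc32a1 loads it into vesicles, Slc6a11 (GAT-3) clears it into astrocytes and Abat breaks it down. Cortical interneurons fall into classes that are told apart by what they make: parvalbumin (Pvalb), somatostatin (Sst), vasoactive intestinal peptide (Vip), cholecystokinin (Cck), neuropeptide Y (Npy) and reelin (Reln) among others. C57BL/6J mice carry a strain-private deletion in an intron of Gabra2 that is known to lower its RNA, and all groups share it.

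Of 37 libraries, 2 had under 1000000 counts and were left out, namely adolescent antibiotics saline replicate 3 and adult antibiotics morphine replicate 4. The other 35 held 10630727 to 31560468 counts, with 5 libraries in 5 of the groups, 4 in adult antibiotics morphine, and 3 each in adolescent antibiotics saline and adult water saline. The summed level of 8 markers of cortical excitatory neurons was 6634 to 8753 CPM (read counts scaled to a common library total) in 34 of these libraries, and that of 12 markers of striatal projection neurons was 278 to 378 CPM. The library of adolescent water saline replicate 1 stood apart, with 5155 CPM of the excitatory markers, 2162 CPM of the striatal markers and 19364 CPM of 6 myelin markers of mature oligodendrocytes, against at most 6130 CPM of myelin markers elsewhere. All results below are therefore given with this library (35 libraries) and, where a call depends on it, without it (34 libraries). A further measure, chi-square per degree of freedom between the gene counts of a pair of libraries, was taken within groups. It was 42.7 to 72.8 for pairs with adolescent water saline replicate 1 and 39.6 to 62.1 for pairs with adult antibiotics saline replicate 2. All other pairs gave 1.86 to 16.4. Adult antibiotics saline replicate 2 was kept in both the 35 and the 34 libraries. In 7 adolescent libraries, spread over all 4 adolescent groups, 6 hormone genes of pancreatic islets summed to 520 to 1148 counts, against at most 12 counts in any other library. Levels of the 29 genes below use totals scaled by TMM. The marker sums and the levels of single genes outside the 29 use the totals as they are.

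Every one of the 29 genes was detected in each of the 35 libraries, with at least 46 counts, and all passed the filter on low counts. Levels between genes can be compared only per length, so they are given here as CPM per kilobase of exon, as the median over the 35 libraries. The peptide genes covered the widest range: Cck stood at 347, Sst at 285 and Npy at 130 CPM per kb, while Vip stood at 12.7, Cort at 11.1, Tac1 at 4.31 and Crh at 3.33. Among receptor genes the GABA-B subunits were above each of the 9 GABA-A subunits described here, with Gabbr1 at 91.4 and Gabbr2 at 63.7 CPM per kb.

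Of the GABA-A subunits, Gabra3 was the most abundant per length at 41.9 CPM per kb, followed by Gabra5 at 23.6, Gabrb2 at 21.6, Gabra4 at 18.9 and Gabrd at 17.1. Gabrb1 stood at 9.08 and Gabra2 at 6.30, while Gabrg3 at 3.75 and Gabrg1 at 2.45 CPM per kb were lowest. The genes of GABA handling lay close together, from 25.1 CPM per kb for Gad2 and 25.5 for Slc6a11 to 28.6 for Abat, 30.6 for Slc32a1 and 36.7 for Gad1. Gephyrin (Gphn), the scaffold that anchors GABA-A receptors at the synapse, stood at 15.8 CPM per kb. Pvalb led the other markers at 43.1, with Erbb4, a neuregulin receptor of interneurons, at 6.58, calretinin (Calb2) at 5.50, Lhx6, a transcription factor of the medial ganglionic eminence lineage, at 3.83 and Reln at 2.73.

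**Figure D1:**
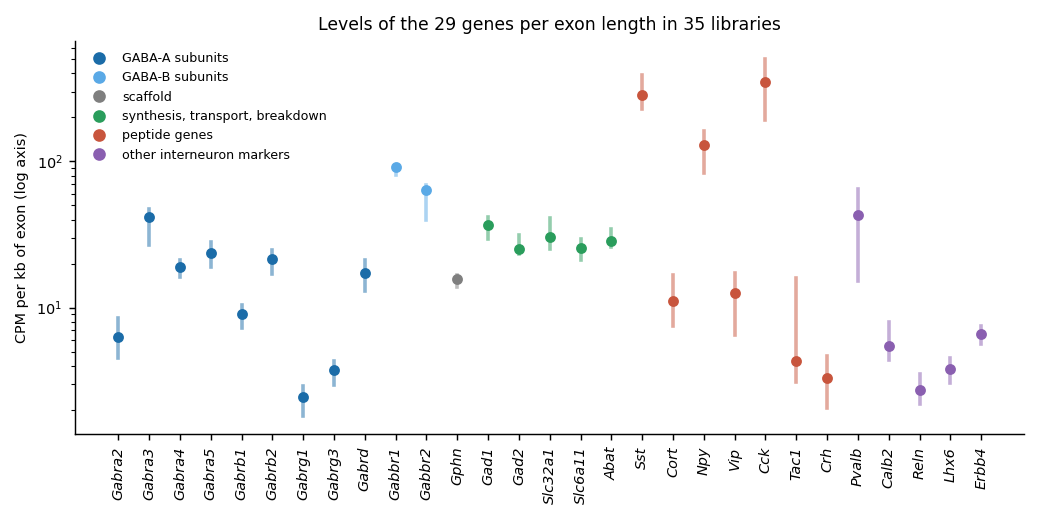
Median CPM per kilobase of exon (points, log axis) and the range over 35 libraries (lines) for the 29 genes, coloured by role. Cck, Sst and Npy stand highest, and the lowest values are those of Gabrg1 and Reln; the long downward lines of Cck and Pvalb and the long upward line of Tac1 end at adolescent water saline replicate 1.

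Adolescent water saline replicate 1 differed from the other 4 libraries of its group in most of these genes: 4 lay above and 17 below the range of the others, and 8 lay inside it. The genes above were Tac1, the substance P precursor, at 54.0 CPM against 14.6 to 17.1, Slc32a1 at 115 against 78.4 to 87.8, Gad2 at 184 against 140 to 152, and Abat at 266 against 217 to 236. Those below included Cck at 252 against 504 to 658 CPM, Pvalb at 15.9 against 30.0 to 48.0, Vip at 22.2 against 40.7 to 48.3 and Npy at 46.8 against 66.1 to 91.1. Gabbr2 stood at 266 CPM against 434 to 458 and Gabra3 at 105 against 161 to 182. Of the 7 peptide genes, 6 were below the range of the group and Tac1 was above it, and of the 5 other interneuron markers Pvalb, Reln and Lhx6 were below it while Calb2 and Erbb4 were inside. Other interneuron genes were highest of all libraries here, among them Dlx1 at 57.2 CPM against a median of 27.7 and Prox1 at 29.9 against 11.3. Whether the striatal and myelin RNA accounts for these values was not tested.

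**Figure D2:**
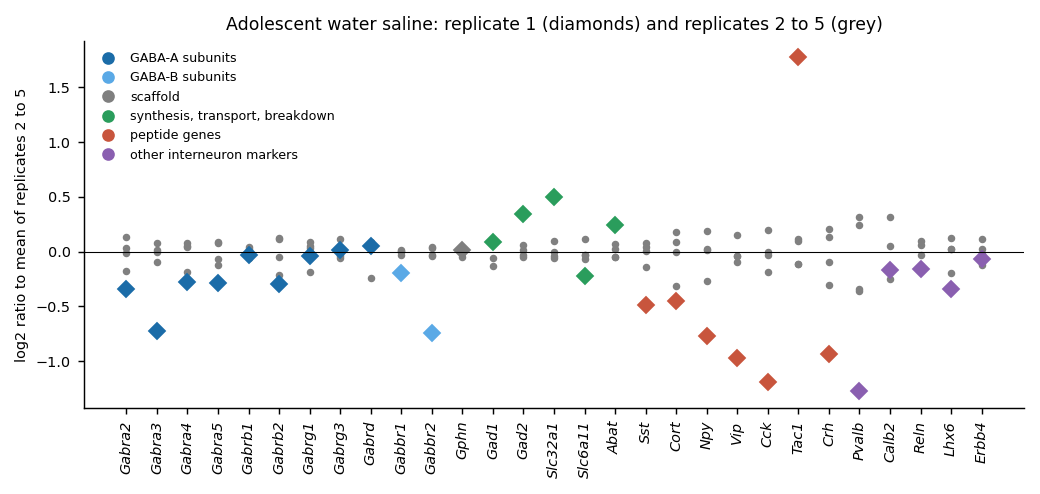
Log2 ratio of each adolescent water saline library to the mean of replicates 2 to 5, for replicate 1 (diamonds, coloured by role) and replicates 2 to 5 (grey points). Tac1 lies far above 0 in replicate 1, Slc32a1, Gad2 and Abat lie above the grey points, and Cck, Pvalb, Vip, Gabbr2 and Gabra3 lie well below them.

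Age was compared as adult minus adolescent, averaged over the 4 combinations of drink and injection. Adult cortex held less Sst and less Cort, the gene of cortistatin, a somatostatin-related peptide, and more Gad1. Sst fell by 17.6% and Cort by 22.1%, while Gad1 rose by 9.58%. These were the 3 of 29 genes that passed an adjusted p of 0.05 in edgeR's quasi-likelihood test, 1 higher and 2 lower. Of all 19332 genes tested 20.3% passed, 9.11% higher and 11.2% lower. The median log2 fold change was -0.01 over the 29 genes and 0.00 over all genes tested.

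Sst in adolescent water saline was 184 CPM in replicate 1, 273 in replicate 2, 234 in replicate 3, 265 in replicate 4 and 260 in replicate 5. In adult water saline it was 196, 210 and 229 CPM. Apart from adolescent replicate 1, which was lower than all 3 adult libraries, the adolescent libraries were all above the adult ones. With water and morphine the adolescent libraries held 205, 241, 228, 219 and 192 CPM and the adult libraries 190, 169, 183, 177 and 193 CPM, so that 1 adult library passed the lowest adolescent one. With antibiotics and saline the adolescent libraries held 249, 246 and 282 CPM against 189, 183, 170, 208 and 209 CPM in adults. With antibiotics and morphine they held 198, 199, 216, 207 and 228 CPM against 164, 174, 185 and 189 CPM. In both antibiotic settings the ages did not overlap.

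The averaged log2 fold change of Sst was -0.28 ± 0.04 (SE), with an edgeR adjusted p of 1.5e-05, and it passed in each of the 35 fits that left out 1 library. Within the 4 settings the log2 fold change was -0.20 with water and saline (adjusted p = 0.221, edgeR), -0.25 with water and morphine (0.149), -0.43 with antibiotics and saline (0.00773) and -0.24 with antibiotics and morphine (0.133). Without adolescent water saline replicate 1 all 4 passed, with edgeR adjusted p of 0.026, 0.0258, 0.000245 and 0.0269 in that order, where 4.56%, 1.52%, 3.39% and 4.23% of all genes passed. The value with antibiotics and saline did not pass without adolescent antibiotics saline replicate 5 (adjusted p = 0.118). Islet cells also make somatostatin, so the adolescent libraries were set side by side: Sst had a median of 216 CPM in the 7 with over 20 islet hormone counts and 234 CPM in the other 11. Within the groups the 2 kinds of library had medians of 207 and 214 CPM with antibiotics and morphine, 249 and 264 with antibiotics and saline, 210 and 219 with water and morphine, and 260 and 249 with water and saline. With a term for those 7 libraries, Sst stood at -0.29 for age (edgeR adjusted p = 9.98e-05). All 7 are adolescent, so the term is tied to age. The part of islet RNA in the Sst values was not tested.

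Cort was a low gene, at 5.37 to 11.4 CPM in 18 adolescent libraries (median 8.67) and 5.06 to 8.47 CPM in 17 adult libraries (median 6.75). The ages overlapped over most of that range, and only with antibiotics and saline did they not overlap with all libraries kept, at 8.56 to 8.80 CPM against 5.34 to 6.84 CPM. The averaged log2 fold change was -0.36 ± 0.08 (SE), with an edgeR adjusted p of 0.0017, and it passed in each of the 35 fits that left out 1 library. No single setting passed with 35 libraries, and the largest difference was -0.56 with antibiotics and saline (adjusted p = 0.0864, and 0.0423 without adolescent water saline replicate 1).

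Gad1 encodes GAD67, the enzyme that makes most of the GABA in the brain, and was higher in adults. Adolescent water saline libraries held 260, 235, 224, 260 and 262 CPM and the adult ones 297, 288 and 289 CPM, with no overlap. With water and morphine the ages overlapped throughout, at 258, 252, 271, 263 and 302 CPM in adolescents and 282, 283, 272, 271 and 256 CPM in adults. With antibiotics and saline the adolescents lay at 250, 272 and 283 CPM, all below the 302, 296, 300, 310 and 288 CPM of adults, and with antibiotics and morphine the means were 276 ± 17.4 (SD, n = 5) and 300 ± 15.6 CPM (n = 4).

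The averaged log2 fold change of Gad1 was 0.13 ± 0.03 (SE), with an edgeR adjusted p of 0.00082, and it passed in each of the 35 fits that left out 1 library. Among single settings it passed with water and saline, at 0.23 ± 0.06 (adjusted p = 0.0229), as the 1 of 29 genes there, beside 3.39% of all genes tested. That call was lost without adolescent water saline replicate 2 or 3 or without any of the 3 adult water saline libraries, with adjusted p of up to 0.102. The other settings gave 0.02 with water and morphine (0.931), 0.16 with antibiotics and saline (0.19) and 0.12 with antibiotics and morphine (0.251). Gad2, which encodes the GAD65 enzyme of nerve endings, had a log2 fold change of 0.02 (95% interval -0.04 to 0.07), and Slc32a1 one of -0.06 (-0.14 to 0.03).

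Without adolescent water saline replicate 1, 6 of 29 genes passed for age, 2 higher and 4 lower, where 25.3% of genes tested passed. The 3 added genes were Cck, Npy and Vip, all peptides whose values in that library lay outside the rest of its group. For Cck the log2 difference was -0.22 (edgeR adjusted p = 0.0003) against -0.18 (0.103) with all 35 libraries, and its levels ran from 405 to 658 CPM in the other 17 adolescent libraries and from 352 to 491 CPM in adults. For Npy the values were -0.18 (0.0154) against -0.15 (0.119), and for Vip 0.13 (0.0187) against 0.17 (0.076). Tac1 moved from -0.25 to -0.10 and passed with neither set of libraries. Sst, Cort and Gad1 passed in the same direction in both.

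**Figure D3:**
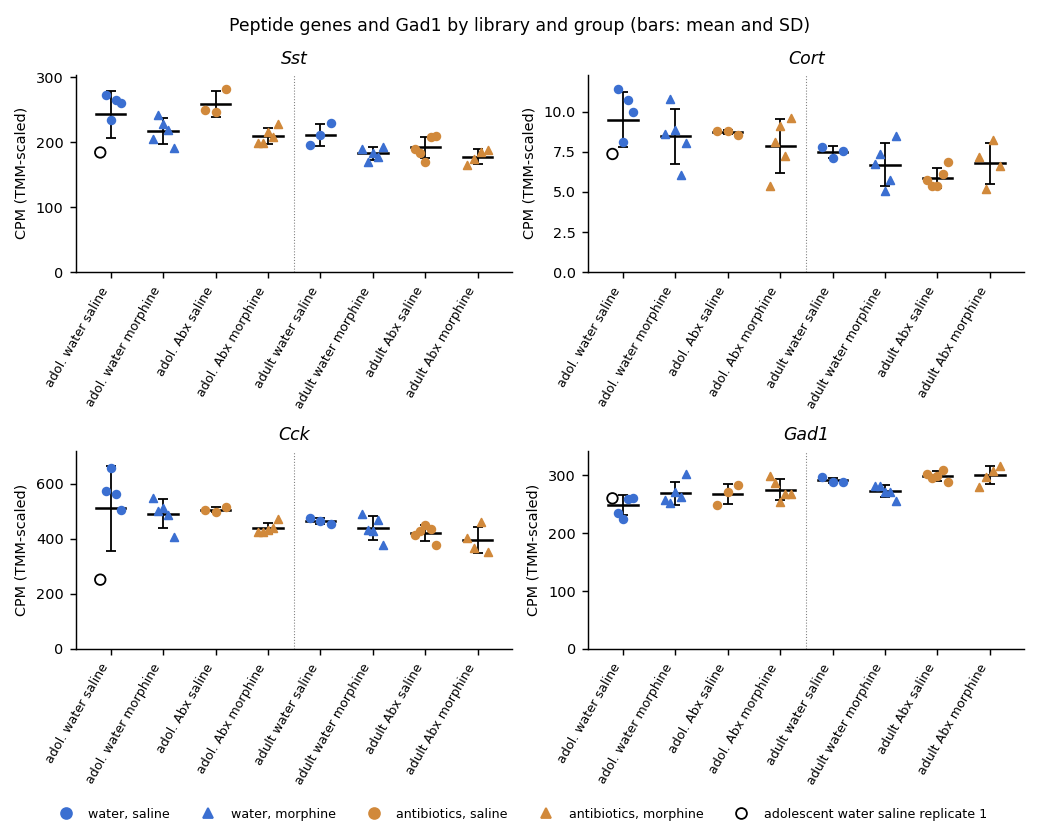
CPM of Sst, Cort, Cck and Gad1 in each library of the 8 groups, with the group mean (horizontal line) and SD (bars); blue marks water, orange antibiotics, circles saline and triangles morphine, and the open circle is adolescent water saline replicate 1. The mean of Sst is lower in each adult group than in the adolescent group of the same treatment, the means of Gad1 differ least between ages with water and morphine, and the open circle lies at 252 CPM in the Cck panel.

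The other settings gave few calls. In adults against adolescents with antibiotics and saline, Sst was the 1 gene of 29 that passed, beside 1.39% of all genes, and with water and morphine (0.626% of all genes) or antibiotics and morphine (1.87%) none of the 29 did, with 35 libraries. None of the 9 GABA-A subunits, the GABA-B pair, gephyrin, or the markers Pvalb, Calb2, Reln, Lhx6 and Erbb4 passed for age averaged over settings. The GABA-A subunits ranged from -0.08 for Gabrg3 to 0.06 for Gabrb2 on the log2 scale. Calb2 stood at -0.16 ± 0.06 (adjusted p = 0.0659, edgeR) and Pvalb at 0.12 ± 0.11 (0.46). In this bulk RNA, fewer cells of a type and less RNA per cell cannot be told apart, for Sst and Cort as for the other markers.

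Because Sst and Cort were the 2 genes of the 29 that fell in adults with 35 libraries, the bases before their start sites are shown. The cAMP response element, TGACGTCA, is a classical feature of the Sst promoter, and its core is TGACG or, read on the other strand, CGTCA, which the full element contains. The 120 bases upstream of each start site from RefSeq (GRCm38.p6) are given 5′ to 3′ on the gene's strand, with the element or core in capitals: for Sst the minus strand of chr16:23890845-23890964 and for Cort the minus strand of chr4:149126764-149126883.
Sst: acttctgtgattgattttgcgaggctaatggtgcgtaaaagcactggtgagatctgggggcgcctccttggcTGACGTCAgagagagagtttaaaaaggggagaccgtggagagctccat
Cort: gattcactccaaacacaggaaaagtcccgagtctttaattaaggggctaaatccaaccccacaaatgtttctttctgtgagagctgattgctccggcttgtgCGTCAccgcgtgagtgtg

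In the 250 bases upstream, searched on both strands, 1 of the 25 genes with a promoter entry held the full element, namely Sst, at bases 48 to 41 before the start site. The core was in 6 of them: Sst, Cort, Cck, Gad2, Tac1 and Vip. Over all 32851 promoters of the table, 1.55% held the full element and 17.8% the core. In Cort the core lay at bases 18 to 14. Of the 3 genes added for age without adolescent water saline replicate 1, Cck and Vip, which moved in opposite directions, held the core and Npy did not. These matches describe the letters alone.

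Antibiotics were compared with water, averaged over both ages and both injections. Cortex from mice given antibiotics held less Gabra2, the alpha2 subunit of GABA-A receptors found on the axon initial segment and in limbic forebrain, and less Gabrb1, a beta subunit encoded in the same gene cluster. Slc6a11, the astrocytic GABA transporter, and Reln, the secreted glycoprotein of layer 1 and other interneurons, were lower as well, and Lhx6 was higher. Gabra2 fell by 21.1%, Reln by 11.4%, Gabrb1 by 10.5% and Slc6a11 by 7.7%, and Lhx6 rose by 9.88%. These were 5 of 29 genes, 1 higher and 4 lower, while 10.2% of all genes passed in edgeR, 5.16% higher and 5.05% lower. The median log2 fold change was -0.05 over the 29 genes and -0.00 over all genes.

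Gabra2 in adolescents with saline was 46.5, 60.4, 64.6, 58.1 and 52.2 CPM on water and 49.5, 45.0 and 49.1 CPM on antibiotics. The groups overlapped through water replicate 1 alone, the library that stands apart. In adolescents with morphine it was 52.6, 50.5, 50.7, 52.8 and 43.3 CPM on water and 37.7, 37.5, 38.2, 41.6 and 40.3 CPM on antibiotics, with no overlap. In adults with saline it was 55.7, 56.3 and 54.1 CPM on water and 38.5, 48.1, 46.8, 44.8 and 39.6 CPM on antibiotics, again with no overlap. In adults with morphine it was 55.4, 59.0, 51.9, 56.3 and 39.4 CPM on water and 34.4, 39.2, 40.1 and 41.4 CPM on antibiotics. There water replicate 5 lay inside the range on antibiotics and the other 4 lay above it.

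The averaged log2 fold change of Gabra2 was -0.34 ± 0.05 (SE), with an edgeR adjusted p of 6.4e-06, which placed it at rank 47 of 19332 genes by p-value. It passed in each of the 35 fits that left out 1 library and in all 7 other settings tried. By setting, the log2 fold change was -0.23 in adolescents with saline (adjusted p = 0.425, edgeR), -0.36 in adolescents with morphine (0.0287), -0.35 in adults with saline (0.2) and -0.43 in adults with morphine (0.00757). The call in adults with morphine was lost without adult antibiotics morphine replicate 1 (-0.38, adjusted p = 0.0504). The call in adolescents with morphine was lost without any of antibiotics replicates 1, 2, 3 and 5 or water replicates 1, 2, 3 and 4, with edgeR adjusted p of up to 0.108. Gabra2 was the 1 gene of 29 that passed in each of these morphine settings, where 1.11% of all genes passed in adolescents and 1.92% in adults.

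With saline no gene of the 29 passed for antibiotics, in adolescents (0.0103% of all genes) or in adults (0.031%). These 2 backgrounds were low beside those with morphine. The difference of the antibiotic effects on Gabra2 between morphine and saline was -0.13 in adolescents (95% interval -0.39 to 0.13) and -0.09 in adults (-0.36 to 0.18), so a larger effect with morphine was not shown. The difference of its antibiotic effects between ages was -0.10 (-0.28 to 0.09).

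Gabra2 lies in a cluster of 4 GABA-A subunit genes on chromosome 5, given here in GRCm38.p6 coordinates of RefSeq: Gabrg1 at 70751047 to 70842617, Gabra2 at 70958392 to 71095849, Gabra4 at 71569734 to 71658308 and Gabrb1 at 71657921 to 72149572. All 4 were measured. Their averaged log2 fold changes for antibiotics were -0.10 (adjusted p = 0.156, edgeR) for Gabrg1, -0.34 for Gabra2, -0.03 (0.705) for Gabra4 and -0.16 (0.00584) for Gabrb1. The genes that passed were thus 2 of the 4 neighbours. Gabra4 and Gabrb1 start head to head and share 46 exon bases on opposite strands in GENCODE M21, and the sources used here do not say whether counting used strand, so reads there could count for either.

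Gabrb1 ran from 101 to 140 CPM in the 17 antibiotic libraries (median 119) and from 103 to 145 CPM in the 18 water libraries (median 137). The pooled ranges overlapped almost entirely, although the medians differed. Only in adolescents with saline did the drinks not overlap, at 115 to 126 CPM with antibiotics against 135 to 145 CPM with water. Its log2 fold change was -0.16 ± 0.04 (SE) and it passed in each of the 35 fits that left out 1 library. By setting it stood at -0.21 in adolescents with saline, -0.10 in adolescents with morphine, -0.13 in adults with saline and -0.19 in adults with morphine, none of which passed alone.

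Slc6a11 ran from 108 to 138 CPM with antibiotics (median 121) and from 117 to 148 CPM with water (median 134). The difference between drinks was -0.12 ± 0.03 (SE) on the log2 scale, with an edgeR adjusted p of 0.0083, and it passed in each of the 35 fits that left out 1 library. Only in adolescents with morphine did the drinks not overlap, at 112 to 126 CPM against 128 to 139 CPM. In adults with morphine the log2 fold change was -0.17 (adjusted p = 0.117), and it passed there without adolescent water saline replicate 1 (0.0488) or without adult antibiotics morphine replicate 3 (0.0353). With the first of these left out, 2 of 29 genes passed there, beside 3.52% of all genes.

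Astrocyte markers were read beside Slc6a11, which astrocytes express. Of 7 astrocyte markers, 3 fell with antibiotics and none rose: Aqp4, the water channel of astrocyte endfeet, by 0.46, and the glutamate transporters Slc1a3 and Slc1a2 by 0.14 and 0.12 on the log2 scale. Their summed level was 3303 to 3888 CPM with antibiotics (median 3461) and 3444 to 4240 CPM with water (median 3774). Of 5 microglial markers 4 fell, among them Cx3cr1 by 0.24 and Tmem119 by 0.22 on the log2 scale, with sums of 175 to 244 CPM against 208 to 285 CPM. Of all genes, 10.2% passed for antibiotics and 5.05% were lower. None of 6 myelin markers passed, although without adolescent water saline replicate 1 their sums had a median of 2500 CPM with antibiotics and 1799 CPM with water. The part of these cell types in the result for Slc6a11 was not tested.

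Reln ran from 51.9 to 73.7 CPM with antibiotics (median 60.5) and from 56.6 to 83.4 CPM with water (median 69.1), with wide overlap. The log2 difference between drinks was -0.18 ± 0.05 (SE), with an edgeR adjusted p of 0.0165. The call was lost without adult water saline replicate 3 (-0.15, adjusted p = 0.0524), where Reln was highest at 83.4 CPM. Without that library Gabra2, Gabrb1 and Slc6a11 still passed for antibiotics, and the share of all genes passing in that fit was not taken. Lhx6 ran from 16.8 to 21.8 CPM with antibiotics and from 14.6 to 20.2 CPM with water, at 0.14 ± 0.05 (SE; adjusted p = 0.0487). The Lhx6 call was lost in 22 of the 35 fits that left out 1 library, with adjusted p of up to 0.122 without adolescent antibiotics saline replicate 2, and in 6 of 7 other settings. Reln shares 246 of its 23738 exon bases with an antisense gene model, and Lhx6 shares 104 of 4805 with a model on its own strand. Slc32a1 (697 of 2797 bases), Gabra5 (148 of 2974) and Gphn (147 of 3749) also share exon bases with antisense models. The counts of all these genes may depend on how shared reads were assigned.

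Without adolescent water saline replicate 1, 7 of 29 genes passed for antibiotics, 1 higher and 6 lower, where 13% of all genes passed. Gabrb2, the beta2 subunit of the common synaptic receptor, then stood at -0.11 on the log2 scale (edgeR adjusted p = 0.0429, against 0.123 with 35 libraries). Cck stood at -0.16 (0.00929, against 0.382) and Gad1 at 0.08 (0.0377, against 0.0599). Lhx6 did not pass there, at 0.12 (0.0612). The calls for Gabrb2 and Gad1 also appeared without adolescent water morphine replicate 5, at adjusted p of 0.0445 and 0.0203.

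**Figure D4:**
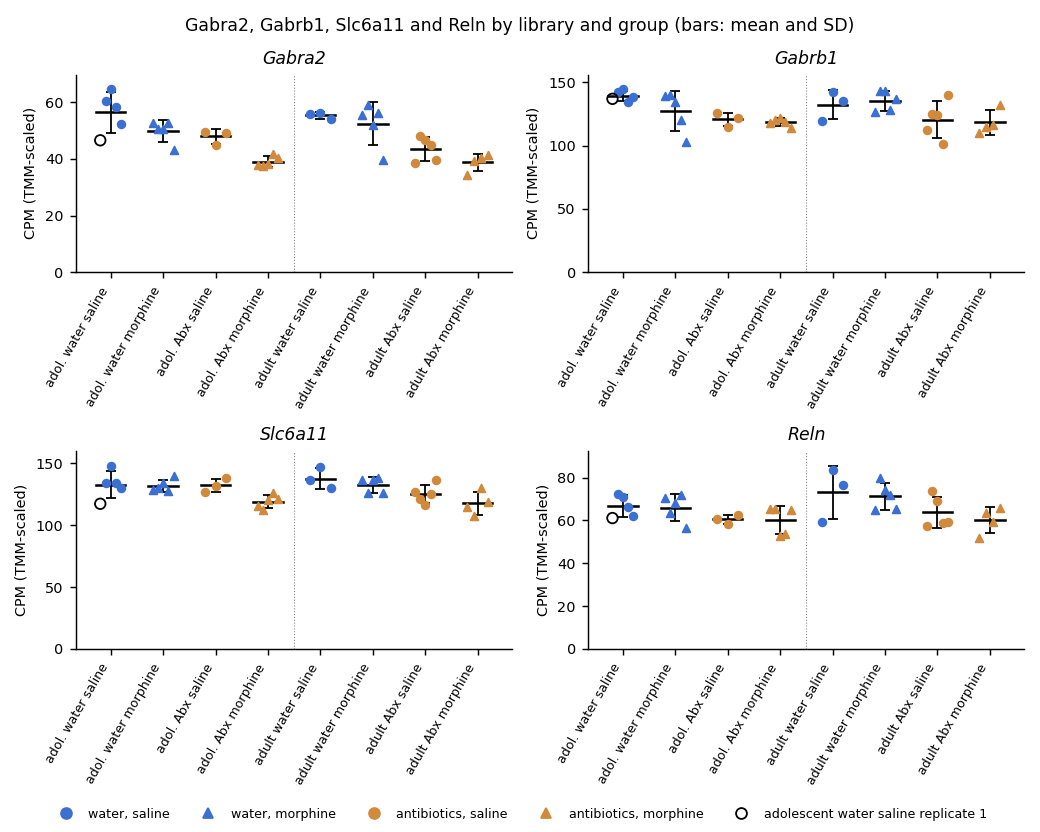
CPM of Gabra2, Gabrb1, Slc6a11 and Reln in each library of the 8 groups, with the group mean (horizontal line) and SD (bars); blue marks water, orange antibiotics, circles saline and triangles morphine, and the open circle is adolescent water saline replicate 1. The orange points of Gabra2 lie below the blue points in each age and injection apart from single libraries. In the Reln panel the colours overlap in each age and injection, and in the Gabrb1 panel in all but adolescents with saline.

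The remaining receptor genes gave smaller values for antibiotics. Gabra5, the alpha5 subunit of extrasynaptic receptors, stood at 0.12 ± 0.04 (adjusted p = 0.0724, edgeR), Gabrd, the delta subunit of tonic inhibition, at -0.12 ± 0.06 (0.19), and Gabra3 at -0.00 ± 0.05 (0.982). Gabbr1 and Gabbr2 both stood at -0.03, and gephyrin at 0.00 (95% interval -0.05 to 0.06). Of the peptides, Sst had a log2 fold change of -0.03 (-0.12 to 0.05) and Vip of 0.13 (-0.01 to 0.27). Pvalb, at 0.09 ± 0.11 (SE), was among the least precise.

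Morphine was compared with saline, averaged over both ages and both drinks. Cortex from morphine-injected mice held less Sst, by 12.7%, and no other gene of the 29 passed with 35 libraries. Of all genes 0.316% passed, 0.129% higher and 0.186% lower. On the log2 scale the difference in Sst was -0.20 ± 0.04 (SE), with an edgeR adjusted p of 0.0365. Sst ran from 164 to 241 CPM in 19 morphine libraries (median 193) and from 170 to 282 CPM in 16 saline libraries (median 220). The median log2 fold change was -0.03 over the 29 genes and 0.00 over all genes.

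The Sst libraries are those given for age. In adolescents on antibiotics, morphine at 198 to 228 CPM did not overlap saline at 246 to 282 CPM, and in adults on water, morphine at 169 to 193 CPM did not overlap saline at 196 to 229 CPM. In the other pairs the injections overlapped. The 4 log2 fold changes were -0.16 in adolescents on water, -0.30 in adolescents on antibiotics, -0.21 in adults on water and -0.11 in adults on antibiotics, with edgeR adjusted p of 0.414, 0.279, 1 and 0.791. The age and morphine comparisons use the same libraries, so their values for Sst are not independent.

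The averaged Sst call for morphine depended on single libraries. Without adolescent water saline replicate 1 it was -0.22 (adjusted p = 0.00078, edgeR). It was lost in 13 of the 35 fits that left out 1 library: adolescent antibiotics saline 1 and 5, adolescent antibiotics morphine 1 and 2, adolescent water saline 3 and 4, adolescent water morphine 1 and 3, adult water saline 3 and 5, adult water morphine 2 and 3, and adult antibiotics morphine 2. The edgeR adjusted p in those fits was at most 0.0904. With a term for the 7 libraries with islet hormone counts Sst stood at -0.19 (0.0563).

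Gabra2 stood at -0.18 ± 0.05 (SE; adjusted p = 0.0769, edgeR) for morphine, and without adolescent water saline replicate 1 it passed at -0.20 (0.0231), so that 2 of 29 genes passed where 1.3% of all genes did. Its level was 34.4 to 59.0 CPM with morphine (median 41.6, n = 19) and 38.5 to 64.6 CPM with saline (median 49.3, n = 16). The 4 settings gave -0.17 in adolescents on water, -0.30 in adolescents on antibiotics, -0.08 in adults on water and -0.17 in adults on antibiotics. Gabrd stood at -0.17 ± 0.06 (adjusted p = 0.213) and Gabrg1 at -0.13 ± 0.04 (0.216).

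In the 4 single settings no gene of the 29 passed for morphine in edgeR. The background there was 0.331% in adolescents on water, 0.0466% in adolescents on antibiotics and 0% in adults on either drink. At an unadjusted p under 0.05 edgeR gave 5, 4, 1 and 1 of the 29 in that order. The share of all genes at that unadjusted threshold was not taken, so these counts have no background to be read against. DESeq2 also passed 0 of 29 in each setting at the adjusted threshold. In adolescents on water the widest values were those of Tac1 at -0.74 ± 0.26 (SE) and Pvalb at 0.50 ± 0.20. Adolescent water saline replicate 1 was the highest saline library there for Tac1 and the lowest for Pvalb. Without it the saline libraries of Tac1 held 14.6 to 17.1 CPM and morphine libraries 10.5 to 16.3 CPM. Pvalb held 30.0 to 48.0 CPM in those 4 saline libraries and 33.9 to 67.3 CPM with morphine, with overlap. The saline mean of Pvalb was 33.9 CPM with replicate 1 and 38.5 CPM without it, against 47.9 CPM with morphine.

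**Figure D5:**
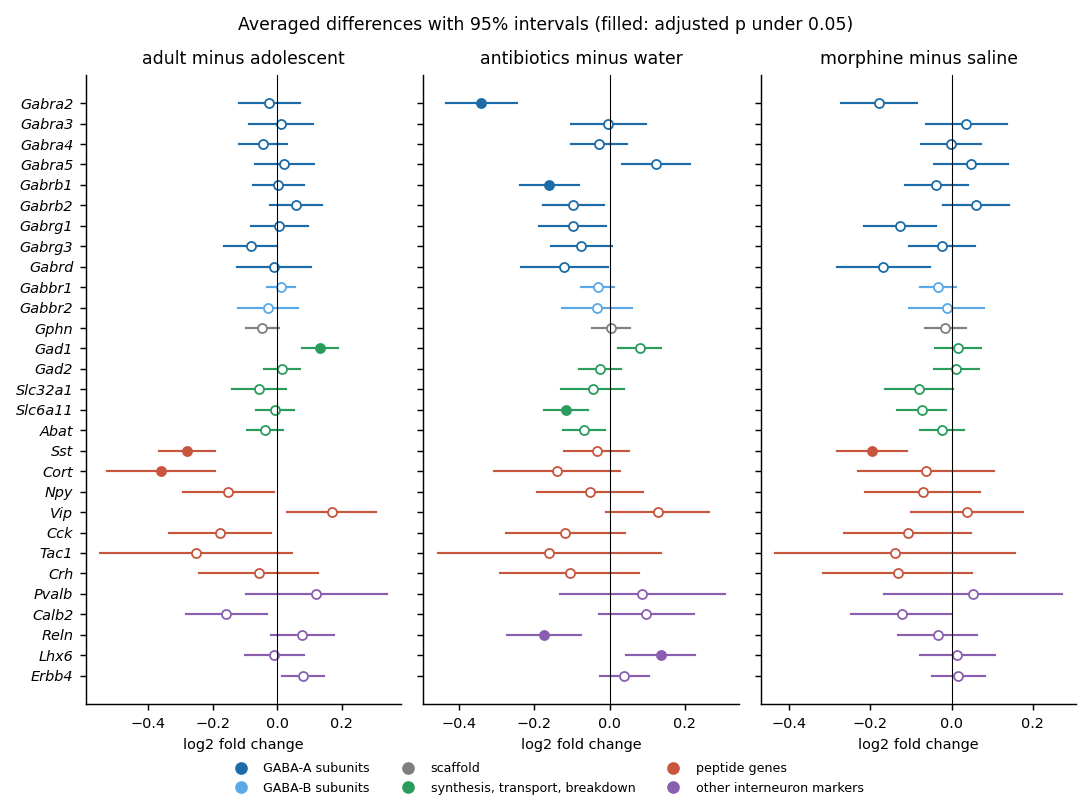
Log2 fold change (points) and 95% interval (lines) of the 29 genes for age, antibiotics and morphine, each averaged over the other factors in 35 libraries; filled points have an adjusted p under 0.05 in edgeR. Sst, Cort and Gad1 are filled for age, Gabra2, Gabrb1, Slc6a11, Reln and Lhx6 for antibiotics, and Sst for morphine, and the widest intervals are those of Tac1 and Pvalb.

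Differences between effects were tested as interactions, and none of the 29 genes passed any of the 4: age by morphine (0.00517% of all genes passed), age by antibiotics (0%), and antibiotics by morphine in adolescents (0.0621%) and in adults (0.00517%). DESeq2 also gave 0 of 29 in each. At an unadjusted p under 0.05 edgeR gave 2, 0, 1 and 0, and the share of all genes at that threshold was not taken. The intervals are wide against the effects. For Sst the age by antibiotics value was -0.11 (95% interval -0.28 to 0.06) and the age by morphine value 0.07 (-0.10 to 0.25). For Gad1 the age by morphine value was -0.12 (-0.24 to -0.01; adjusted p = 0.77), and for Pvalb antibiotics by morphine in adolescents gave -0.61 (-1.21 to -0.00; 0.765).

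Other genes of the pathway were taken from 2 lists. Of 20 tested genes of GABA receptors' partners, GABA and chloride transport and inhibitory synapses (21 listed), 4 fell in adults and none rose with 35 libraries: Insyn1, an inhibitory synapse protein, by 0.17, Lhfpl4, an auxiliary protein of GABA-A receptors, by 0.10, Nlgn2, the neuroligin of inhibitory synapses, by 0.10, and Clptm1, which holds GABA-A receptors in the endoplasmic reticulum, by 0.09 on the log2 scale. Their median was 0.00, and 4 of 20 stands beside 20.3% of all genes passing, 11.2% lower. Without adolescent water saline replicate 1, 3 rose and 5 fell, where 25.3% of all genes passed. With antibiotics 1 of the 20 fell, Kctd16, an auxiliary subunit of GABA-B receptors, by 0.26 on the log2 scale, beside 10.2% of all genes. With morphine none passed (0 at an unadjusted p under 0.05, edgeR, where the share of all genes was not taken).

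Of 24 other interneuron genes, 2 fell in adults: Elfn1, a synaptic organiser of somatostatin interneurons, and Nxph1, a neurexin ligand, by 0.18 and 0.10 on the log2 scale, beside 11.2% of all genes that were lower. With antibiotics 2 rose and 3 fell, while 10.2% of all genes passed. Htr3a, the serotonin-gated channel of Vip and Reln interneurons, rose by 0.23, while Elfn1 fell by 0.16, Nos1, the neuronal nitric oxide synthase, by 0.19 and Calb1, calbindin, by 0.23 on the log2 scale. The fifth, Nxph1, rose by 0.10 and is named after its values were seen. Of 8 markers of excitatory neurons, 2 rose with antibiotics (Neurod2 by 0.16 and Tbr1 by 0.13) and 2 fell in adults (Slc17a7 by 0.18 and Neurod2 by 0.12). None of the 6 myelin markers passed for age, with median sums of 2544 CPM in adolescents and 1845 CPM in adults without adolescent water saline replicate 1. The part of these other cell types in the results for the 29 genes was not tested.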

How the data were processed

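Polyadenylated RNA of 37 mouse brain libraries was measured. Raw counts of reads per gene were deposited for each library. Its column names end as STAR's gene count files do, and STAR 2.7.10a, DESeq2 and mm10 are named, without roles, per the submitters' processing notes. Whether counting used strand is not stated, and neither is the annotation release. Identifiers were matched to symbols with GENCODE M21 (52125 of 56980; the files carry later identifier versions), and exon lengths and overlaps come from that release.

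The 29 genes and all lists were chosen with earlier results of these data known. Groups came from the labels. Libraries under 1000000 counts were left out. In R 4.3.3, edgeR 4.0.16 (TMM, filterByExpr on 8 groups, robust quasi-likelihood fit, 19332 genes, Benjamini-Hochberg adjustment, threshold 0.05) tested 19 contrasts in 1 fit of 35 libraries. CPM of the 29 genes uses TMM-scaled totals, and CPM of marker sums and of other genes uses the totals as they are. Changes were named as results for genes passing with 35 or 34 libraries, and for up to 4 genes per other list by smallest p, with 1 further gene named after its values were seen. Values of other genes of the 29 are given without a call. A result for 1 gene of the lists is not reported here. The scripts were tested on simulated counts. Settings tried beside this were DESeq2 1.42.0, its size factors in edgeR, no filter, all 37 libraries, 34 libraries, a replicate block, a term for libraries with over 20 islet hormone counts, and leaving out each library. No pair of libraries within a group was alike enough to be a repeated deposit, and pairs from different groups were not checked for this. Promoter sequences come from RefSeq (GRCm38.p6), which had 25 of the 29 genes.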

Additional observations from a re-analysis of the deposited data

Results flagged for a closer look

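Within each group of 4 or 5 libraries, the highest or lowest library was compared with the rest by Dixon's gap test, for each of the 29 genes. Of 174 such sets, 16 had a library set apart at the 95% critical value, where chance gives about 1 in 20. In adolescent water saline, replicate 1 accounted for 6: Gabbr1 at 625 CPM (others 704 to 726), Gabbr2 at 266, Gabra3 at 105, Gad2 at 184, Slc32a1 at 115 and Tac1 at 54.0 CPM. Replicate 2 of that group was low for Gabrd at 40.8 CPM (others 49.7 to 51.2).

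In adolescent water morphine, replicate 5 was low for 4 genes: Gabra2 at 43.3 CPM (others 50.5 to 52.8), Gabra3 at 136 (166 to 177), Gabrb2 at 121 (149 to 152) and Tac1 at 10.5 (14.7 to 16.3). In adolescent antibiotics morphine, replicate 5 was high for Cck at 473 CPM (424 to 437), replicate 3 was low for Crh at 3.49 (4.19 to 4.39) and replicate 1 was high for Gphn at 63.1 (59.2 to 60.1). In adults, Gabrg3 was low in antibiotics saline replicate 4 at 36.8 CPM (43.0 to 45.4), and Gabbr2 was low in water morphine replicate 5 at 389 CPM (426 to 440).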

How the results depend on the processing

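Counts below are genes of the 29 past an adjusted p of 0.05. The share of all genes passing was taken only for the edgeR fits with 35 and 34 libraries, so the other counts stand without it. None of the 25 fold changes recomputed reversed its direction in any setting. Group means of single settings can: for age with water and saline, Vip went from 39.1 against 42.9 CPM (adolescent against adult) to 43.4 against 42.9 CPM with 34 libraries, and Npy from 73.2 against 75.2 to 79.8 against 75.2 CPM. With 34 libraries the count was 6 for age averaged over settings (3 with 35), 2 with water and saline, 1 with water and morphine, 2 with antibiotics and saline and 1 with antibiotics and morphine, 2 for morphine averaged, and 2 for antibiotics in adults with morphine. With all 37 libraries the count for age with water and saline was 0. DESeq2 gave 2 for morphine averaged. With no filter on low counts the count was 0 for morphine averaged, 3 for antibiotics averaged and 0 for antibiotics in adolescents with morphine, and with the islet term it was 0 for morphine averaged. Leaving out 1 library at a time gave 3 to 6 for age averaged, 0 to 2 with water and saline, 0 to 1 with water and morphine, 0 to 2 with antibiotics and saline and 0 to 1 with antibiotics and morphine. It gave 3 to 7 for antibiotics averaged, 0 to 1 in adolescents with morphine, 0 to 2 in adults with morphine, and 0 to 2 for morphine averaged. The replicate block gave 2 for morphine averaged, Gabra2 being added. The numbers share no stated origin: deviations of same-numbered libraries correlated at a median of 0.00 (range -0.28 to 0.33 over 108 pairs), and 8 of 35 libraries correlated best with their own number. Of those 25 fold changes, 13 passed with 35 libraries, and over the 7 other settings their call was kept in 80 cases and lost in 11. The other 12 gained a call in 16 cases and had none in 68. The smallest groups hold 3 libraries, which limits the single settings most, and Cort and Crh rest on as few as 62 and 46 counts in a library.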
